A study of Mus musculus with 11 samples.

Results

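The promoters of the nuclear genes for mitochondrial ribosomal proteins were examined for PU.1 ChIP-Seq reads in 2 kinds of mouse erythroid cells. The genes were chosen by name, as all protein-coding genes of the mm9 annotation called Mrpl or Mrps with a number and at most 1 further letter. This gave 76 of 22,359 protein-coding genes, 47 named Mrpl and 29 named Mrps. The names stand for the large and the small subunit, but Mrps18a and Mrps30 encode proteins of the large one. Reads were counted in the 500 bp around 1 transcription start site (TSS) per gene, so each promoter is represented by the reads within 250 bp on either side.

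MEL cells are a mouse erythroleukemia line, and those used here (written as MEL) are of clone DS19 by the study's methods, carry a stable GATA-1/ER fusion and are labelled as clone 4. ES-EP are proliferating erythroid progenitors grown from embryonic stem cells with Epogen, IGF-1, dexamethasone and SCF. Anti-PU.1 (T-21) was used on duplicate chromatin preparations by the study's methods. The labels give a letter and a number, here taken as the preparation (A or B) and its library. This reading gives 2 preparations of each cell type with 2 libraries each, beside 1 input library of MEL and 2 of ES-EP. Reads were summed over the libraries of a preparation, which gives n = 2 preparations per cell type, and the MEL cells are 1 clone. The summed preparations have 5,697,937 and 6,987,141 reads in MEL and 6,284,725 and 7,095,855 in ES-EP, while the input of MEL has 4,278,560 and that of ES-EP 7,488,885. Reads at promoters cannot check the identity of the cells.

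Mitochondria translate the few proteins encoded by their own genome on ribosomes whose protein subunits are all made from nuclear genes and imported. Many of these proteins have counterparts in the bacterial ribosome, and others are found only in mitochondria. Their promoters, like those of respiratory chain genes, are known for sites of GABP and NRF-1. PU.1 and GABP both belong to the ETS family of factors, which bind DNA around the core GGAA. PU.1 prefers purines before the core, as in GAGGAAGT, while GABP prefers CCGGAAGT. Developing erythroid cells depend on mitochondria for heme synthesis.

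The sequences of 6 promoters are given because they carry the contrast between reads and sequence described below. Mrpl52, Mrpl18 and Mrps26 are the members among the 10 with the most ChIP reads that hold GAGGAAGT or CCGGAAGT within 250 bp of the TSS. Mrps18a, Mrps16 and Mrpl47 were added after their values were seen, being the highest promoters with the shorter word CCGGAAG or with neither CCGGAAG nor GAGGAA. Each sequence runs from 170 bases before to 30 bases after the TSS on the strand of the gene (NCBIM37, mm9). Capitals mark GAGGAA and CCGGAAG, with a following T where present, on either strand.
Mrps18a (chr17:46247765-46247964, plus strand): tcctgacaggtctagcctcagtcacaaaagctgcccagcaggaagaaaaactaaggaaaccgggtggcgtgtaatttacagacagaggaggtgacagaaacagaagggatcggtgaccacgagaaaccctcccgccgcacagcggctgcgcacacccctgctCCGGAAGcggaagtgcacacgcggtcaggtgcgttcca
Mrps16 (chr14:21212748-21212947, minus strand): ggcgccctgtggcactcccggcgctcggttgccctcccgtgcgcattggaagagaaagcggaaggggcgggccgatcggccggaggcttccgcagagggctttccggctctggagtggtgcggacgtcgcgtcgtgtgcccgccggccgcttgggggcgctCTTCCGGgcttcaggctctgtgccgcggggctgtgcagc
Mrpl47 (chr3:32636040-32636239, minus strand): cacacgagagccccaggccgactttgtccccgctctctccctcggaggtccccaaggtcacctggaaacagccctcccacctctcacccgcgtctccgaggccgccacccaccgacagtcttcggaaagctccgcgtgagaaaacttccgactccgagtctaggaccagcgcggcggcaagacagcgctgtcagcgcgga
Mrpl52 (chr14:55045576-55045775, plus strand): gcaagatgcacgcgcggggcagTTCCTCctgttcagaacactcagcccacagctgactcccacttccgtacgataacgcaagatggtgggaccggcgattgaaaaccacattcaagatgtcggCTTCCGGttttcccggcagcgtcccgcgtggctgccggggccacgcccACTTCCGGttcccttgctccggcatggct
Mrpl18 (chr17:13109182-13109381, minus strand): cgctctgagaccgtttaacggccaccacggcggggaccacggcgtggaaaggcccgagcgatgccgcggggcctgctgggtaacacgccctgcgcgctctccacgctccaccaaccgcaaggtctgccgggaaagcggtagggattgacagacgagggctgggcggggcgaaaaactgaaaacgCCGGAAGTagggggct
Mrps26 (chr2:130389308-130389507, plus strand): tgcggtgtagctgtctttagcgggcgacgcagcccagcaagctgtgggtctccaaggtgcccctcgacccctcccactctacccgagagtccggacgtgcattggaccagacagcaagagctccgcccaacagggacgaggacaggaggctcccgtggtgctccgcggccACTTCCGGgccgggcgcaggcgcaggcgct
In 5 of the 6 a CCGGAAG word lies within 20 bases of the TSS, and Mrpl47 has neither word. Only exact words were searched. Mrpl47 holds the core GGAA with other flanks, and Mrps18a holds a further core GGAA directly after its CCGGAAG word.

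Reads of PU.1 ChIP gathered at these promoters in every preparation, and input DNA did so to a lesser degree. The 76 windows together held 684 reads in MEL preparation A and 1735 in preparation B, or 120 and 248 rpm (reads per 1,000,000 reads of the library). In ES-EP they held 2070 and 1418 reads, or 329 and 199.8 rpm. The inputs had 344 reads in MEL and 910 in ES-EP, or 80.4 and 122 rpm. Each ChIP preparation was above the input of its cell type. Within the genome the windows were 8.39 and 17.3 times denser than the genome mean in the MEL preparations, 23.0 and 14.0 times in ES-EP, and 5.62 and 8.49 times in the inputs. Scaled by depth, the ratio of summed ChIP to input reads was 1.49 and 3.09 in MEL (mean 2.29 ± 1.13, SD, n = 2) and 2.71 and 1.64 in ES-EP (mean 2.18 ± 0.75, SD, n = 2). The preparations of 1 cell type differed more than the means of the cell types, with B the higher in MEL and A the higher in ES-EP.

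All other protein-coding promoters showed the same order of preparations. Their ratios were 1.95 and 3.31 in MEL and 1.94 and 1.11 in ES-EP. By these sums the Mrp promoters lay below the others in both MEL preparations and above them in both ES-EP preparations. Both ratios of a cell type share its input, which in MEL is 1 library with 1.06 rpm per Mrp promoter and 0.579 per other promoter. In ES-EP the input had 1.60 and 1.42 rpm. ChIP reads alone were higher at the Mrp promoters in every preparation, with 1.58 and 3.27 rpm in MEL and 4.33 and 2.63 in ES-EP. The other promoters had 1.13, 1.91, 2.76 and 1.58. The median ratio per gene, given below, had another order in MEL than the ratios of sums, and that order turned with the settings. Of the 76 members 52 (68.4%) were CpG-rich against 42.7% of all promoters, a CpG-rich promoter being one with at least 55% G and C and an observed-to-expected CpG ratio of at least 0.65 in the 250 bases on either side of the TSS. Among the other genes the ratios were higher at CpG-rich promoters, with 2.07 and 4.02 in MEL and 2.37 and 1.34 in ES-EP, than at the rest, with 1.75, 2.21, 1.24 and 0.737 in the same order. The CpG-rich members had 1.60 and 3.39 in MEL and 2.63 and 1.59 in ES-EP, and the members that were not CpG-rich had 1.19, 2.24, 3.09 and 1.90. The last pair rests on Mrps18a, without which the members that were not CpG-rich had 0.948, 1.80, 2.13 and 1.30, below the CpG-rich members in every preparation. The part of CpG content in these values was not tested.

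**Figure D1:**
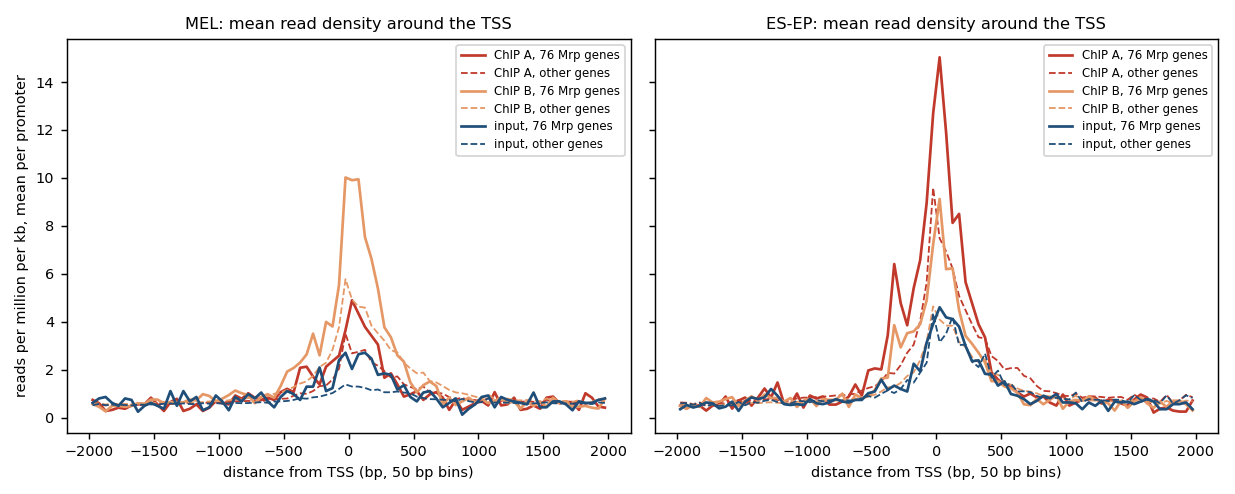
Mean read density in 50 bp bins from 2000 bp upstream to 2000 bp downstream of the TSS, in rpm per kb, for the 76 Mrp genes (solid) and all other genes (dashed) in each preparation and input. All lines are highest next to the TSS, though the Mrp line of the MEL input is as high 125 bp downstream. The Mrp lines reach 15.0 and 9.12 in the ES-EP preparations, 4.90 and 10.02 in the MEL preparations and 4.60 and 2.71 in the inputs of ES-EP and MEL.

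The mean profile of the Mrp promoters peaked in a bin next to the TSS in all 4 preparations. The density was 15.0 rpm per kb in ES-EP preparation A and 9.12 in B, against 4.60 in the ES-EP input. In MEL it was 4.90 and 10.02, against 2.71 in the input. More than 1500 bp from the TSS the densities were between 0.515 and 0.618 in all preparations and inputs. The position of the highest 100 bp lay within 100 bp of the TSS for 31 of 76 genes in MEL and for 36 in ES-EP. A second rise between 200 and 400 bp upstream in ES-EP came largely from 2 genes, since Mrps18b gave 42.4% of the 764 ChIP reads there and Mrpl49 gave 10.5%.

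**Figure D2:**
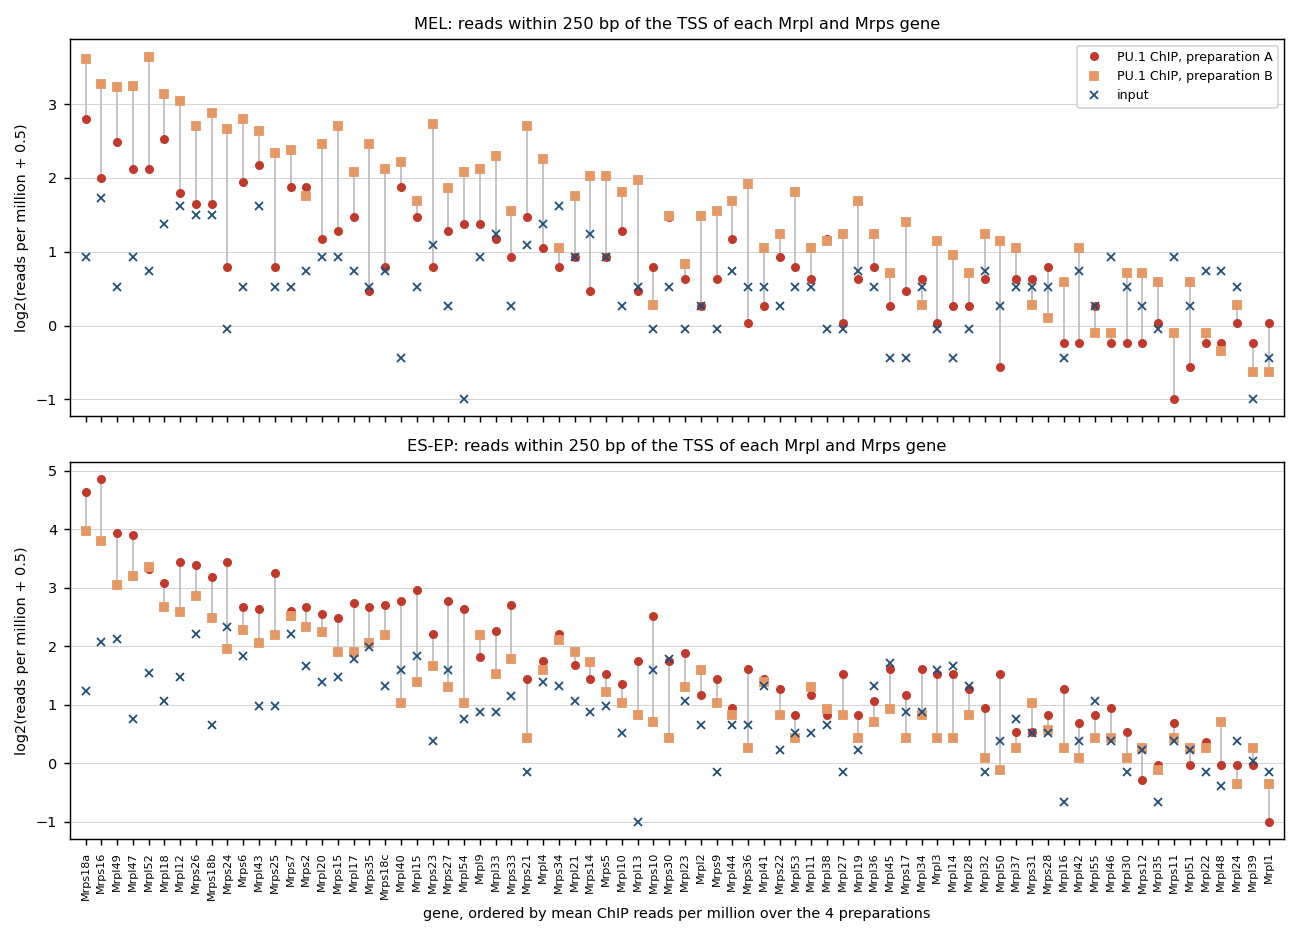
Reads of each of the 76 Mrp promoters in MEL (upper panel) and in ES-EP (lower panel) as log2 of rpm plus 0.5, in preparation A (circles), preparation B (squares) and input (crosses), ordered by the mean over the 4 preparations. Grey lines join the preparations, which lie far apart for many genes, and the input crosses overlap the ChIP points over most of the right side.

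The genes with the most ChIP reads were, in order of the mean over the 4 preparations, Mrps18a, Mrps16, Mrpl49, Mrpl47, Mrpl52, Mrpl18, Mrpl12, Mrps26, Mrps18b and Mrps24. Of all 22,359 promoters Mrps18a ranked 169 and Mrps24 ranked 1306. A total of 18 Mrp genes were in the highest 10% of all promoters and 67 were above the median. Of 9494 other CpG-rich promoters 2069 were in the highest 10% and 8849 above the median. These ranks take no account of input. The lowest 5 Mrp genes were Mrpl22, Mrpl48, Mrpl24, Mrpl39 and Mrpl1, and at these no library set had more than 8 reads.

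Whether ChIP exceeded input was asked first with limma over preparations, in a fit of 4 preparations and the summed input of each cell type. At an adjusted p below 0.05 it called 0 of 76 members in either cell type, and 0% of all promoters. With the 2 inputs of ES-EP as separate samples it called 5 members there, among 502 of all promoters, and the labels do not say whether they are separate chromatin. At an unadjusted p below 0.05, 8 members were above input and 1 below in MEL, where 12.4% and 1.93% of all promoters were. In ES-EP 11 members were above and 0 below, where 6.16% and 0.988% of all promoters were. The median log2 ratio of ChIP to input was 0.83 over the members in MEL and 0.68 in ES-EP, against 0.49 and 0.21 over all other promoters and 1.20 and 0.42 over the other CpG-rich ones. With at least 10 reads required, which left 75 members and 14,051 promoters, the MEL median was 0.84 in the members and 1.01 in the others, so that the order turned. It also turned with the first library of each preparation alone, at 0.80 and 0.85. Without a fit, the MEL medians of the log2 ratio of summed reads were 1.18 in the members and 1.17 in the others with any read. Ratios over an input of 0 reads count as infinite in these medians. The MEL input had 0 reads at 5551 of 22,283 other promoters and at 2 of 76 members, so these 2 medians cannot be compared closely.

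The second test was an exact binomial test of the summed reads of both preparations against depth-scaled input, two-sided and adjusted by Benjamini-Hochberg over all promoters. It covers counting error only and leaves out the spread between preparations. In MEL 11 members (14.5%) passed with more ChIP than input, against 10.6% of all promoters and 22.3% of CpG-rich ones. In ES-EP 18 members (23.7%) passed, against 9.18% of all and 18.1% of CpG-rich promoters. Both cell types shared 7 of these genes (6.06% of all promoters passed in both) and 22 genes passed in at least 1 (13.7%). No member passed with less ChIP than input, where 0.264% of promoters did in MEL and 0.157% in ES-EP. Without regard to a test, both preparations were above input at 50 of 76 genes in MEL and 52 in ES-EP, against 49.3% and 42.6% of all promoters and 75.8% and 53.2% of CpG-rich ones.

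Single preparations decided many of these calls. With preparation A alone 3 members passed in MEL, Mrps18a, Mrpl49 and Mrpl40 (2.77% of all promoters passed), and with preparation B alone 22 passed (16.3%). The other 8 of the 11 summed calls, those of Mrps16, Mrpl47, Mrpl52, Mrpl18, Mrps24, Mrps6, Mrps7 and Mrpl54, were lost without preparation B. In ES-EP 29 members passed with preparation A alone (12.8%) and 9 with B alone (3.95%). Without preparation A 9 of the 18 summed calls were lost, those of Mrpl49, Mrps26, Mrpl43, Mrps25, Mrpl20, Mrps18c, Mrps23, Mrpl54 and Mrps33, and without preparation B only that of Mrpl9. A call in each preparation alone was reached by 3 members in MEL and 8 in ES-EP, where 2.72% and 3.81% of all promoters reached it.

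**Figure D3:**
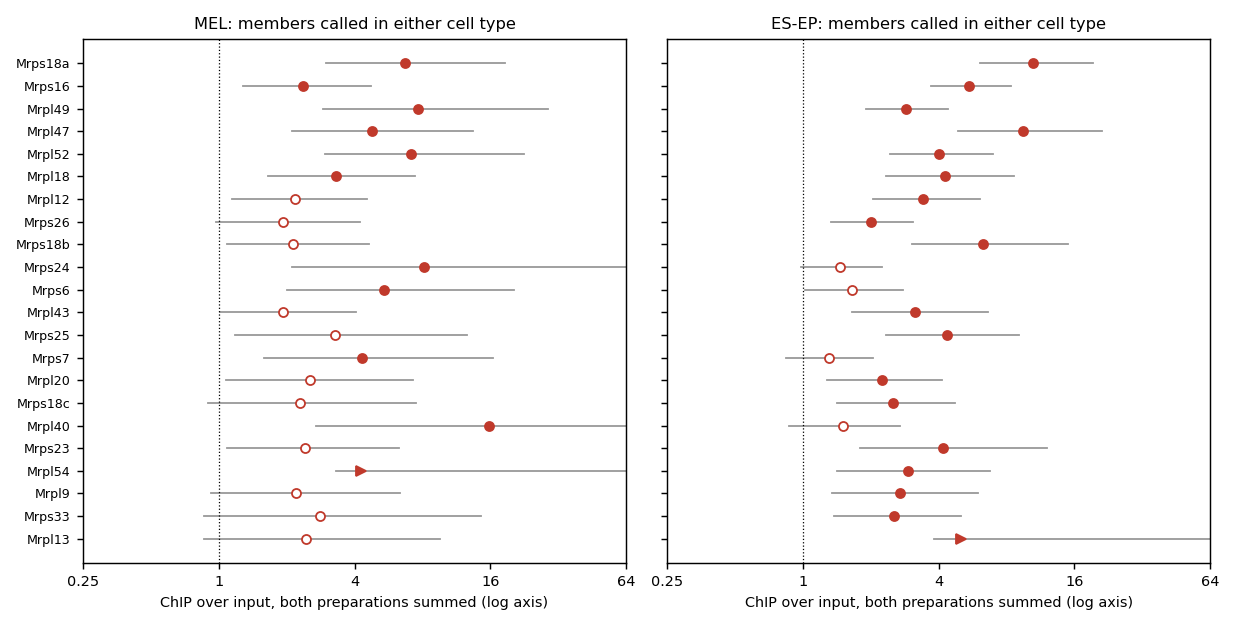
Depth-scaled ChIP over input (log axis, preparations summed) of the 22 Mrp genes that passed the exact binomial test in at least 1 cell type, with exact 95% counting intervals cut at 64. Filled symbols passed the test in that cell type, open circles did not, and triangles use the floor of 3 reads where the input had 0. The intervals of most genes are wide and overlap between the cell types.

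Mrps18a, which encodes a large-subunit protein despite its name, had the most reads and stood above input in every preparation. Counted in preparations A and B, it had 37 and 82 reads in MEL beside 6 in the input, and 154 and 108 in ES-EP beside 14. All 4 preparations were higher than both inputs after scaling by depth. The summed ratio was 6.69 in MEL (95% interval 2.98 to 18.6, adjusted p = 1.81e-07, exact binomial test) and 10.5 in ES-EP (6.13 to 19.4, adjusted p = 7.69e-32). In limma the log2 ratios were 2.53 ± 0.86 (SE) and 3.33 ± 0.90, with adjusted p of 0.202 and 0.283. The reads peaked at the TSS itself, 0 bp from it in MEL and 10 bp downstream in ES-EP, where the printed promoter holds its CCGGAAG word. Directly after that word stands another core GGAA, followed by GT as in GAGGAAGT and CCGGAAGT, with flanks outside the words searched. The reads cannot tell these sites apart.

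Mrps16, a small-subunit protein with a bacterial counterpart, had the highest mean of the ES-EP preparations, with Mrps18a above it in preparation B. It had 20 and 64 reads in MEL with 12 in the input, and 179 and 95 in ES-EP with 28 in the input. MEL preparation A lay near its input, the other 3 preparations well above. The ratio was 2.36 in MEL (1.28 to 4.75) and 5.48 in ES-EP (3.71 to 8.40), with adjusted p of 0.0328 and 2.89e-24 by the exact binomial test. The highest 100 bp lay 130 and 110 bp upstream of the TSS and so away from the CCGGAAG word beside the TSS. The printed sequence holds the core GGAA near that point, with flanks outside the words searched.

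Mrpl47 and Mrpl52 encode large-subunit proteins. Mrpl47 has neither exact ETS word, though its printed promoter holds the core GGAA with other flanks. At this promoter 22 and 63 reads stood beside 6 in MEL and 91 and 62 beside 9 in ES-EP. The ratios were 4.78 (2.11 to 13.4) and 9.52 (4.88 to 21.2). At Mrpl52, which has 2 CCGGAAG words and 1 GAGGAA, 22 and 84 reads stood beside 5 in MEL and 60 and 69 beside 18 in ES-EP, with ratios of 7.15 (2.97 to 22.5) and 4.01 (2.44 to 6.98). The order of the ratios between the cell types was opposite in the 2 genes, and the intervals overlapped in both. The ES-EP preparations of Mrpl52 were close, with ratios of 3.97 and 4.05 in A and B, while its MEL preparations had 3.30 and 10.3.

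Mrpl49 and Mrpl18 are large-subunit genes that share their promoter with a gene on the other strand. Mrpl49 lies 142 bp from the start of Fau, which encodes a protein of the cytosolic small subunit. It had 29 and 62 reads in MEL with 4 in the input, and 93 and 55 in ES-EP with 29 in the input. Its reads peaked 230 bp upstream in MEL and 170 bp upstream in ES-EP, on the Fau side, and 1 GAGGAA word lies 202 bp upstream. Mrpl18 lies 37 bp from Tcp1, a subunit of the cytosolic chaperonin, and had 30 and 58 reads beside 9 in MEL and 50 and 42 beside 12 in ES-EP. Reads of such windows cannot be assigned to 1 of the 2 genes.

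On summed reads Mrps18b passed in ES-EP and not in MEL within its window, with 54 and 36 reads beside 8 in ES-EP and 15 and 48 beside 10 in MEL. With MEL preparation B alone it also passed in MEL. Its highest point lay 310 bp upstream in both cell types and thus mostly outside the window, beyond the start of Ppp1r10, a regulator of a nuclear protein phosphatase, at 177 bp. Between 200 and 400 bp upstream there were 128 ChIP reads in MEL beside 3 in the input and 324 in ES-EP beside 4. This stretch was chosen after the profile was seen and was given no test. It holds 1 GAGGAA word, as TTCCTC on the strand of Mrps18b, shown here in capitals because it lies near the highest point.
Mrps18b, upstream (chr17:36053659-36053688, minus strand): cggcacctccctTTCCTCtgcctccaccac
The word occurs between 210 and 410 bp upstream of 13 of the 76 genes (17.1%) and of 18.6% of all genes.

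Mrpl12, a large-subunit protein that also binds the mitochondrial RNA polymerase, had 17 and 54 reads beside 11 in MEL and 65 and 39 beside 17 in ES-EP. Its ratio was 2.18 in MEL (1.15 to 4.56, adjusted p = 0.106) and 3.42 in ES-EP (2.04 to 6.10, adjusted p = 3.11e-06, exact binomial test). Mrps26, a small-subunit protein specific to mitochondria, had 15 and 42 reads beside 10 in MEL and 63 and 48 beside 31 in ES-EP. The ES-EP ratio was 2.004 (1.34 to 3.09), the lowest of those that passed. On summed reads Mrps24 passed in MEL and not in ES-EP, with 7 and 41 reads beside 2 (ratio 8.10, 2.12 to 68.8), while in ES-EP 65 and 24 reads stood beside 34 in the input (ratio 1.47, 0.977 to 2.24). Without MEL preparation B its MEL ratio was 2.63 (adjusted p = 0.959, exact binomial test), and with ES-EP preparation A alone it passed in ES-EP. The intervals of Mrps24 barely overlapped, and the interaction of cell type and ChIP had an adjusted p of 0.940 in limma.

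Some of the largest log2 ratios of the fit were found where the input had almost no reads. In MEL Mrpl54 had 12 and 26 ChIP reads beside 0 in the input, which makes the ratio at least 4.27-fold with the floor of 3 reads that a count of 0 allows, while the exact 95% interval of the counts begins at 3.31. Without preparation B the ratio at the floor was 3.004 and the call was lost (adjusted p = 0.0615, exact binomial test). Mrpl40 had 18 and 29 beside 1, a ratio of 15.9 with an interval of 2.71 to 639. Mrpl40 lies 270 bp from Hira, a histone chaperone gene, and its MEL reads peaked 425 bp upstream, past the start of Hira. In ES-EP Mrpl13 had 18 and 9 reads beside 0, at least 5.04-fold at the floor, with an interval from 3.82, and 3.17-fold at the floor without preparation A. Mrpl16 had 12 and 5 beside 1 (ratio 9.52, 1.49 to 398, adjusted p = 0.0581, exact binomial test). All 4 are large-subunit proteins, and with inputs this low the sizes of these ratios are hardly known.

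Apart from Mrpl12, the members named for their textbook roles had at most 25 ChIP reads in a preparation. Mrpl11 and Mrpl3, large-subunit proteins with bacterial counterparts, had 6 and 11 reads beside 4 and 3 and 12 beside 2 in MEL. In ES-EP they had 11 and 14 beside 7 and 15 and 6 beside 19, so that Mrpl3 was below its input there. Mrps12, the counterpart of the bacterial protein in which streptomycin resistance arises, had 2 and 8 beside 3 in MEL and 2 and 5 beside 5 in ES-EP. Mrps5 had 8 and 25 beside 6 and 15 and 13 beside 11, and Mrpl36 had 7 and 13 beside 4 and 10 and 8 beside 15. None of these 5 passed in either test, and for all of them the interval of the ratio included 1 in both cell types.

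Grouped by the subunit and the origin of the proteins, 2 of 30 large-subunit genes with a bacterial counterpart passed the exact binomial test in MEL and 6 in ES-EP, where 10.6% and 9.18% of all promoters did. Of 19 large-subunit genes specific to mitochondria 5 passed in each. Of 16 small-subunit genes with a bacterial counterpart 4 passed in MEL and 2 in ES-EP, and of 10 specific to mitochondria 0 and 5. Their median log2 ratios lay between 0.75 and 1.03 in MEL and between 0.33 and 1.07 in ES-EP. Mrps18a was counted with the large-subunit genes specific to mitochondria and Mrps18b with the small-subunit ones, while Mrps36 was put in no class. The groups are small, and differences between them were not tested.

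**Figure D4:**
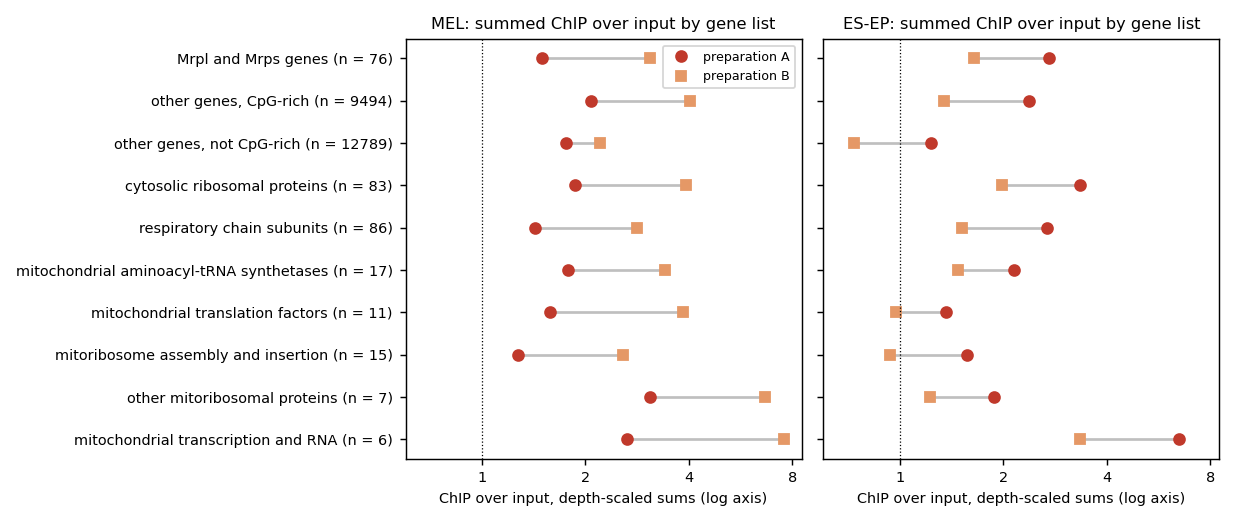
Ratio of depth-scaled summed ChIP to input reads (log axis, dotted line at 1) for the Mrp genes, other promoters by CpG content, and related gene lists, in preparation A (circles) and B (squares), with n the number of genes. The Mrp genes lie between CpG-rich and other promoters in MEL preparation B, with 3.09 against 4.02 and 2.21, below both in MEL preparation A, and above both in the ES-EP preparations.

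Related gene lists were set beside the Mrp genes. Of 83 genes for cytosolic ribosomal proteins 20 passed the exact binomial test in MEL and 26 in ES-EP (10.6% and 9.18% of all promoters), with ratios of sums of 1.87 and 3.92 (MEL A and B) and 3.35 and 1.98 (ES-EP A and B). Of 86 genes for respiratory chain subunits, 11 passed in each cell type, with ratios of 1.43, 2.82, 2.69 and 1.52 in the same order. Mitochondrial aminoacyl-tRNA synthetases had 5 and 3 of 17, mitochondrial translation factors 2 and 0 of 11, and factors of mitoribosome assembly and membrane insertion 3 and 1 of 15. Genes of mitochondrial transcription and RNA had 2 and 1 of 6. A further 7 mitoribosomal proteins with other names, such as Dap3, had 4 and 2. In each preparation the ratios of sums of the Mrp genes were below those of the cytosolic ribosomal proteins. They were close to those of the respiratory chain, while values per gene were less close. In MEL the median log2 ratio was 0.83 in the Mrp genes, 0.37 in the respiratory chain and 1.12 in the cytosolic ribosomal proteins. In ES-EP it was 0.68, 0.52 and 1.05. Both preparations lay above input at 65.8% of Mrp and 46.5% of respiratory chain genes in MEL, and at 68.4% and 55.8% in ES-EP. None of these differences was tested.

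Between the cell types no member differed in limma over the 4 preparations, where 0 of 76 and 0% of all promoters passed at an adjusted p below 0.05. At an unadjusted p below 0.05, 3 were higher in ES-EP (3.18% of all promoters) and 0 in MEL (2.55%). The interaction, which takes the inputs into account, also called 0 of 76 and 0% of all, with 1 higher in MEL (3.28%) and 3 in ES-EP (2.15%) at the unadjusted threshold. Both ES-EP preparations exceeded both MEL preparations at 20 genes (19.2% of all promoters), and the reverse held at 6 (12.1%). Both preparations lay above input in MEL and below it in ES-EP at 7 genes (7.29% of all promoters), and above it in ES-EP and below it in MEL at 5 (5.87%). The median log2 difference, MEL minus ES-EP, was -0.48 over the members, -0.22 over the others and -0.53 over the other CpG-rich promoters. Without MEL preparation A it turned to 0.11 over the members, with -0.036 over the others. Without MEL preparation B the values were -0.91 and -0.52.

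Mrps16 had 3.51 and 9.16 rpm in MEL and 28.5 and 13.4 in ES-EP. Its log2 difference was -1.79 ± 0.79 (SE, adjusted p = 0.797 by limma). Mrps34, a small-subunit protein specific to mitochondria, had 1.23 and 1.57 rpm in MEL, below the input at 2.57, and 4.14 and 3.81 in ES-EP, above the input at 2.003. Its difference was -1.46 ± 0.61 with the same adjusted p. Mrps34 had the closest preparations of these genes in both cell types. Mrps11 had 0 and 3 reads in MEL beside 6 in the input and 7 and 6 beside 6 in ES-EP. Its start is 53 bp from that of Mrpl46, another member, so the 2 windows share most of their length.

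Higher in MEL were Mrps21, with 2.28 and 6.01 rpm against 2.23 and 0.846 in ES-EP, Mrpl44, with 1.76 and 2.72 against 1.43 and 1.27, and Mrpl24, with 0.527 and 0.716 against 0.477 and 0.282. The last rests on 3 and 5 reads against 3 and 2, and its log2 difference of 0.67 (adjusted p = 0.847 by limma) turned to -0.093 with the first libraries. The groups of Mrps21 nearly touched, and its log2 difference was 1.37 ± 0.71 (SE, adjusted p = 0.797 by limma). With median-ratio size factors in place of total reads, which moved the median of all other promoters from -0.22 to 0.14, Mrps21 and Mrps16 passed with adjusted p of 0.0196 and 0.0402, as did 228 of all 22,359 promoters. In relation to that median their log2 differences were similar under both scalings.

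Across the 76 genes the log2 values of the preparations resembled each other, with Pearson r of 0.798 between A and B in MEL, 0.871 in ES-EP and 0.776 to 0.825 between the cell types. The inputs of the cell types had an r of 0.170. ChIP and input of 1 cell type had an r of 0.392 and 0.478 in MEL and of 0.671 and 0.601 in ES-EP. These are descriptions over genes, which are no replicates and share libraries, CpG content and, in a pair of windows, reads.

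**Figure D5:**
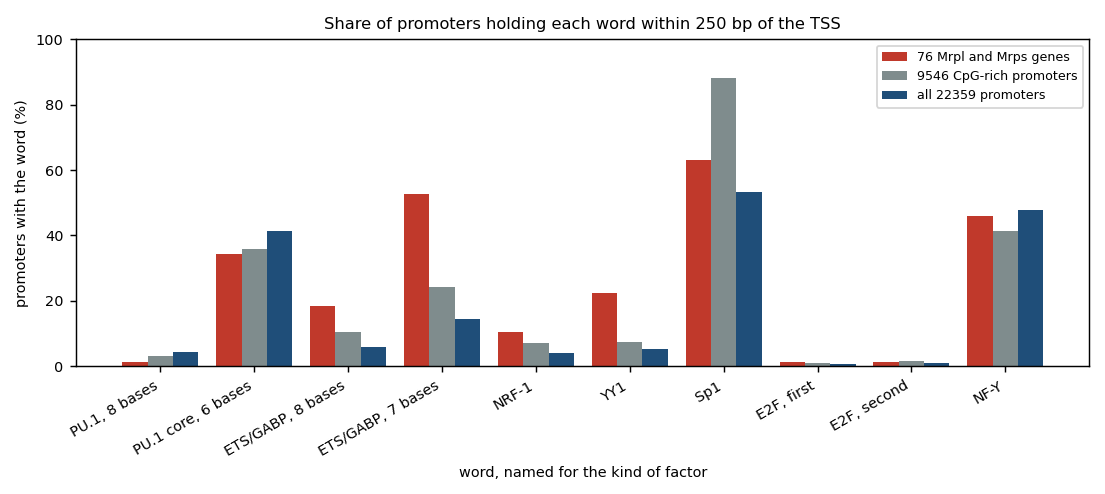
Percentage of promoters with each word within 250 bp of the TSS on either strand, for the 76 Mrp genes, CpG-rich promoters and all promoters, with words named for the kind of factor they are known from. The ETS word of the GABP kind (7 bases) is in 52.6% of Mrp promoters and 14.3% of all, while the PU.1 core word is in 34.2% of Mrp promoters, 35.7% of CpG-rich and 41.4% of all promoters.

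The promoter sequences of the family differed from those of other genes in the ETS words. CCGGAAG was found on either strand within 250 bp of the TSS in 40 of 76 members (52.6%), against 14.3% of all promoters and 24.3% of CpG-rich ones, and 39 of its 46 occurrences were within 100 bp of the TSS. CCGGAAGT, which contains it, was in 14 (18.4%), against 5.74% and 10.3%. The PU.1 words were not more frequent than elsewhere, with GAGGAA in 26 members (34.2%, against 41.4% of all and 35.7% of CpG-rich ones) and GAGGAAGT in Mrps10 alone (1.32%, against 4.20% and 2.95%). Mrps10 had 7 and 5 reads beside 2 in MEL and 33 and 8 beside 19 in ES-EP, and it did not pass. A matching word is a description of the sequence and not a bound site.

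Of other words, AAGATGGC of the YY1 kind was in 17 members (22.4%, against 5.19% of all and 7.50% of CpG-rich promoters). GCATGCGC of the NRF-1 kind was in 8 (10.5%, against 3.91% and 6.93%). GGGCGG of the Sp1 kind was in 48 (63.2%), against 53.4% of all and 88.2% of CpG-rich promoters. CCAAT was in 35 (46.1%, against 47.8% and 41.4%). The E2F words TTTCGCGC and TTTGGCGC were in 1 member each (1.32%), against 0.604% and 0.917% of all and 1.06% and 1.46% of CpG-rich promoters. All words were searched on both strands, and CpG-rich promoters differ from others in most of them.

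Members with and without CCGGAAG were compared for reads. Of the 40 with the word, 12 passed the exact binomial test in ES-EP and 5 in MEL. Of the 36 without it, 6 passed in each cell type. Over all promoters 23.8% of those with the word passed in ES-EP and 23.5% in MEL, against 6.73% and 8.41% of those without it. Of all promoters with the word 72.6% were CpG-rich, against 37.7% of those without it, and the part of CpG content was not tested. The ratio of sums in the members with the word was 1.33 and 2.93 in the MEL preparations and 3.19 and 1.96 in ES-EP, against 1.76, 3.35, 2.24 and 1.33 without it. By these ratios the members with the word were lower than those without in both MEL preparations and higher in both ES-EP preparations. Both MEL ratios share 1 input library, which had 1.25 rpm per promoter with the word and 0.844 without it. The ChIP reads alone were higher with the word in every preparation. They were 1.67 and 3.66 rpm in MEL and 4.83 and 2.98 in ES-EP, against 1.48, 2.83, 3.78 and 2.24. With GAGGAA the counts were 4 and 7 of 26 in MEL and ES-EP, and without it 7 and 11 of 50. Over all promoters the shares were 11.7% and 11.6% with GAGGAA and 9.80% and 7.48% without it.

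Shared promoters are frequent in the family, as 21 of 76 genes (27.6%) have the start of another protein-coding gene within 500 bp on the other strand, against 7.42% of all genes. Of these 21, 4 passed the exact binomial test in MEL and 5 in ES-EP, and of the other 55, 7 and 13 did. Among genes outside the family 22.2% and 23.6% of shared promoters passed in MEL and ES-EP, and 9.64% and 7.98% of the others. Of these shared promoters 78.2% were CpG-rich, against 39.8% of the others. Among the genes named above, Mrps21 is paired with C920021L13Rik, Mrps34 with Eme2, Mrps5 with Zfp661 and Mrps12 with Sars2, the mitochondrial seryl-tRNA synthetase gene. The ratios of sums were 1.48 and 2.77 in MEL and 2.57 and 1.56 in ES-EP at shared promoters, against 1.499, 3.24, 2.76 and 1.68 at the others. By CpG content, 10 of 52 CpG-rich members passed in MEL and 15 in ES-EP, and of the other 24 members 1 and 3 did. Outside the family 22.4% and 18.03% of CpG-rich promoters passed in MEL and ES-EP, and 1.81% and 2.52% of those not CpG-rich.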

How the data were processed

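The reads came from an Illumina GAII. The authors aligned them to mm9 with ELAND (version not given in the sources used here) and kept unique hits of up to 2 mismatches. Each line of a deposited file is 1 such read, and no file holds a measured value. Between 99.95 and 100% of 2000 reads checked per library matched the NCBIM37 genome. Reads on unplaced sequence and the mitochondrial genome were left out, which leaves 2,054,667 to 5,051,235 per library. Tables of peaks were not used here.

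The 5′ ends of reads were moved by 70 bp (MEL) or 65 bp (ES-EP) toward the fragment centre and counted in 500 bp around the TSS of the transcript with the longest coding sequence of each gene (GENCODE M1). Repeated positions were kept. Depth was scaled by total reads. Tests were limma 3.58.1 with voom weights (R 4.3.3, no filter, two-sided, Benjamini-Hochberg over all 22,359 promoters), with 2 residual degrees of freedom, and an exact binomial test on summed reads (scipy 1.17.1 for intervals), with adjusted p below 0.05. The number in a label was taken as the library and the letter as the preparation. Letters are not stated to pair the cell types, and the A minus B deviations of the cell types had an r of -0.145 over 14,051 promoters with at least 10 reads. Preparations are separate chromatin by the study's methods, and limma's p-values rest on the spread between them, moderated toward a value pooled over all promoters. The fit with inputs had 14.6 prior beside its 2 residual degrees of freedom. Each input was 1 sample there, so the spread of input was not measured. The p-values of the exact binomial test cover counting error only. The inputs of ES-EP, which the labels do not describe as separate chromatin or as runs of 1, were summed. Intervals and floors (3 reads) cover counting error only.

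The genes, lists, words and tests were chosen with earlier results of these data known. Named are the 10 members with the highest mean ChIP and the 5 lowest. In each cell type the 5 with the largest limma log2 ratio of ChIP to input are named. Also named are the 3 with the largest difference between cell types in each direction, among those with the direction in 4 of 4 pairs of preparations. Mrpl12, Mrps12, Mrpl3, Mrpl11, Mrps5 and Mrpl36 were named for their textbook roles. Members that passed the exact binomial test are otherwise counted. The alternatives were other windows (1000 and 2000 bp), another TSS, 1 read per position, single libraries, other library sizes, a filter, limma-trend on log2 of CPM plus 0.5, separate inputs, blocks and leaving out each preparation.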

Additional observations from a re-analysis of the deposited data

Results flagged for a closer look

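At 12 members both preparations of 1 cell type lay above the input and both of the other lay below it, a pattern found at 13.2% of all promoters. Above input in ES-EP and below it in MEL were Mrps34, Mrpl46, Mrps11, Mrpl22 and Mrpl48, with interaction log2 values (MEL minus ES-EP, ChIP over input) of -1.84, -2.13, -3.12, -2.26 and -3.01. Above input in MEL and below it in ES-EP were Mrps30, Mrpl45, Mrpl3, Mrpl14, Mrpl28, Mrpl36 and Mrpl37, with values of 2.04, 2.03, 1.65, 2.51, 1.10, 1.15 and 0.89. The windows of Mrps11 and Mrpl46 share most of their length. The test of the difference called none of the 12 (limma, adjusted p between 0.864 and 0.940), and the largest, Mrps11, rests on 3 ChIP reads in MEL.

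In 58 sets of 4 ChIP libraries (the summed members and each named member in each cell type), 2 libraries stood apart from the other three, both at Mrps11, where chance flags about 1 set in 20. Library B2 of MEL had 0.706 rpm, from 3 reads, and the others were listed at 0. Library A2 of ES-EP had 1.27 rpm against 0.826 to 0.887 in the others.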

How the results depend on the processing

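Calls over input by limma were 0 in both cell types and stayed at 0 in MEL under 9 of 15 alternative limma fits and in ES-EP under 8 of 15. In MEL 1 member was called above input with the first libraries, the second libraries or each ES-EP input as a sample (937, 715 and 637 of all promoters), and 0 to 1 without single preparations (0 to 605 of all promoters), the called gene being Mrpl54, whose MEL input has 0 reads. Mrps11 was called below input in MEL with the first libraries and with median-ratio size factors, as were 30 and 266 of all promoters. In ES-EP 2 were called with the first (Mrpl13 and Mrpl43) and 1 with the second libraries (Mrpl13), where 430 and 100 of all promoters were, 5 with median-ratio size factors and 5 with separate inputs (464 and 502 of all promoters, with Mrps18a, Mrps16, Mrpl47, Mrps18b and Mrpl13 in each case), and 0 to 1 without single preparations (2 to 87 of all promoters), then Mrpl13, whose input has 0 reads. The exact binomial test called 11 and 18 members on summed reads, 3 and 8 in each preparation alone, and 12 and 21 with background bins as library size (2446 and 2220 of all promoters) in MEL and ES-EP, the latter pairs added after seeing the data. Between the cell types 2 members passed with median-ratio size factors (228 of all promoters), 0 without single preparations, and in the interaction 1 with the first libraries (Mrps11, with 35 of all promoters) and 0 without single preparations.

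The letter of the preparation as a replicate block gave 0 members (3 of all promoters). As the deviations ran opposite, the crossed pairing (MEL A with ES-EP B, MEL B with ES-EP A) was added after seeing the data. No label or method pairs the preparations this way, and a pairing chosen by the deviations itself lowers the residual spread. It called 8 members, 1 higher in MEL and 7 in ES-EP, and 1195 of all promoters, and these calls cannot count as a result. The median log2 ratio of the members was 0.31 to 1.34 in MEL and 0.41 to 1.03 in ES-EP without single preparations. Median-ratio size factors moved it from 0.83 to -0.11 and from 0.68 to 0.17, and those of the other promoters from 0.49 to -0.51 and from 0.21 to -0.30, with the members above the others under both scalings. With the first libraries the MEL order turned, at 0.80 in the members and 0.85 in the others. Of the named differences between cell types Mrpl24 turned, to -0.093 with the first libraries. Median-ratio size factors are taken from the promoter windows with reads in every sample, so they remove a shift common to those windows. The cause of the other shifts was not tested.

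The median member had 7 reads in MEL preparation A and 4 in the MEL input, which limits the precision of single ratios.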
